A study of Mus musculus with 10 samples.

Results

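The minichromosome maintenance (MCM) genes measured here were Mcm2, Mcm3, Mcm4, Mcm5, Mcm6, Mcm7, Mcm8 and Mcm10, 8 of the 18193 genes that the arrays name. Every probe set that the platform annotation ties to 1 of these 8 symbols and to no other gene was taken, which gave 23 of the 45137 probe sets in the series, 18 on the 430A chip and 5 on the 430B chip. A probe set is a group of short oligonucleotides that reads out 1 transcript, and its value is an intensity, a brightness on a linear scale that can be set against the same probe set on other arrays of a chip but not against another probe set. On each chip, 3 arrays held medulloblastoma, a tumour of the cerebellum, and 2 arrays held adjacent cerebellar tissue that the labels call wild type. All 10 arrays came from mice carrying CAGGS-CreER and R26-SmoM2, given tamoxifen at 1 mg per 40 g body weight on postnatal day 10, so the cerebellum samples share the transgenes and the drug with the tumours. CAGGS is a broadly active promoter, CreER is a recombinase that tamoxifen switches on, and SmoM2 is a constantly active Smoothened, the protein that passes the Hedgehog signal into the cell, placed at the Rosa26 locus. The labels call the samples of a group biological replicates without tying them to mice, so a p-value covers the spread between these samples only. The sources used here do not give the age at collection or the tumour content of the dissected tissue.

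MCM2 to MCM7 form the ring-shaped hexamer that is loaded onto replication origins before DNA synthesis and that unwinds DNA at the fork once CDC45 and the GINS complex have joined it. Loading is called licensing, and cells that leave the division cycle lose these proteins, which is why pathologists use MCM proteins as markers of cells able to divide. MCM10 is an initiation factor outside the ring that helps to switch the loaded helicase on, and MCM8 pairs with MCM9 in repair by homologous recombination. In the cerebellum the precursors of granule neurons divide after birth under Hedgehog signalling and then mature into neurons that no longer divide.

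Each of the hexamer genes Mcm2 to Mcm7 rose in medulloblastoma on at least 1 probe set, Mcm10 rose on 1 of its 3, and Mcm8 did not pass the test. On 430A, 16 of the 18 MCM probe sets rose and none fell, against 13.1% of all tested 430A probe sets that rose and 19% that fell (limma, adjusted p below 0.05). None of the 18 was lower at an unadjusted p below 0.05 either, where 17 were higher. The 16 rises ran from 1.16 to 4.03 in log2 fold change (medulloblastoma over cerebellum), with adjusted p between 1.06e-06 and 0.00033. The median over the 18 probe sets was 2.49, against -0.05 over all 16969 tested probe sets, and 13 of the 18 reached a log2 fold change of 2, against 1.38% of all. On 430B, 2 of the 4 tested MCM probe sets rose, against 7.85% of all tested there, and none fell, against 9.77% of all, with 0 lower and 3 higher at an unadjusted p below 0.05, and a further probe set was too dim to be tested. In 18 of 18 tested MCM probe sets on 430A and 4 of 4 on 430B, the 3 tumour arrays lay above the 2 cerebellum arrays. That order was also shown by 23.8% and 20.8% of all tested probe sets of those chips. The untested MCM probe set on 430B had it too. With a pseudocount of 1 in place of 16, 7 of the 16 fold changes on 430A grew by more than 1.5 times, and with one of 64, 14 shrank by more than that, with every call kept. In bulk tissue a lower share of dividing cells and less RNA per cell cannot be told apart.

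**Figure D1:**
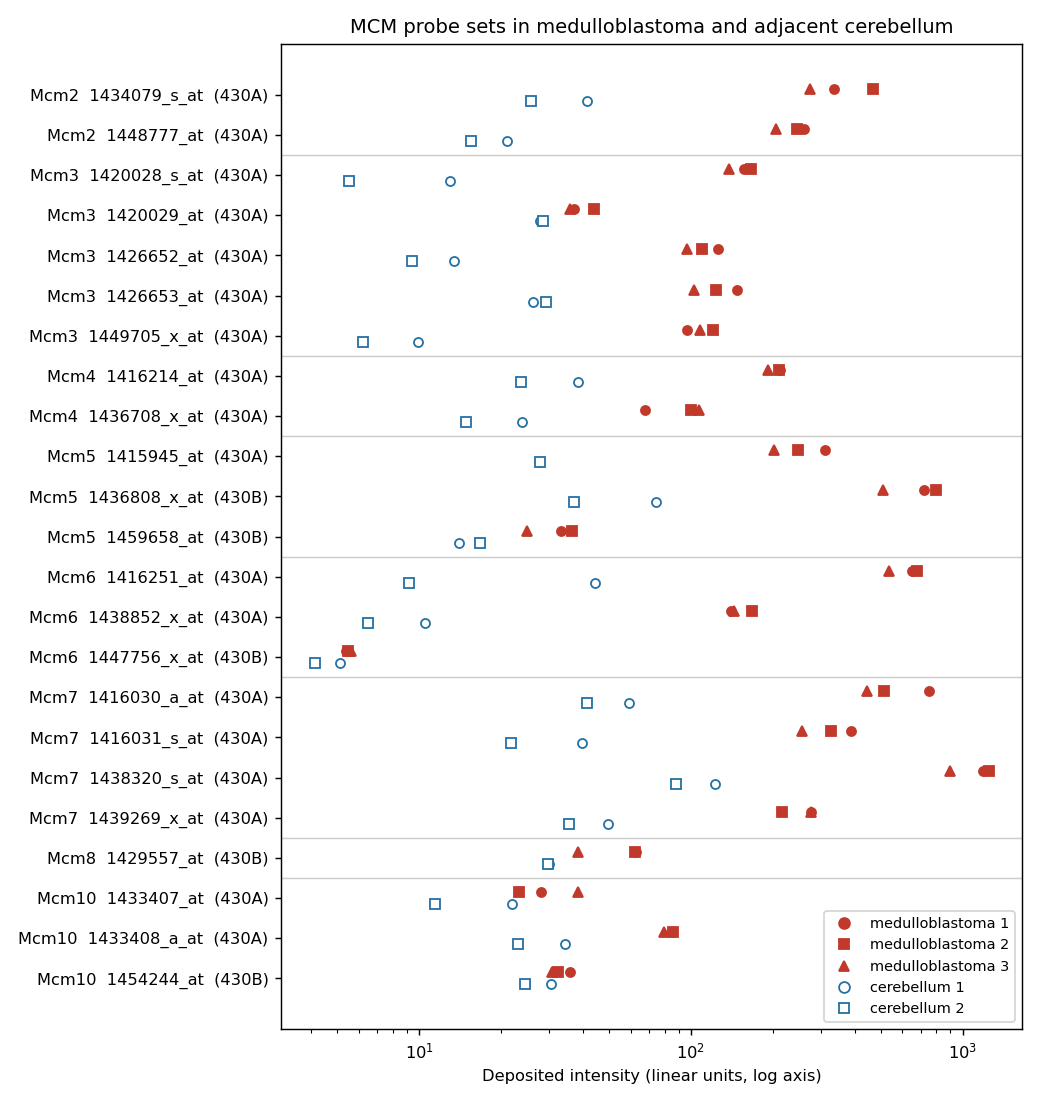
Intensity (log axis) of each of the 23 MCM probe sets on every array, with filled points for the 3 medulloblastomas, open points for the 2 cerebellum samples, and the chip named for each probe set. The tumour points lie above the cerebellum points in every probe set, by a wide margin for most probe sets of Mcm2 to Mcm7. The margin is small for Mcm8, for 1433407_at and 1454244_at of Mcm10 and for the dim Mcm6 probe set on 430B.

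Mcm6, the subunit whose tail holds the loading factor CDT1, had the largest change of the family. Its probe set 1416251_at read 652, 681 and 534 in the 3 medulloblastomas, against 44.3 and 9.16 in the 2 cerebellum samples. The tumour arrays were close to each other, while the cerebellum arrays differed by 4.83 times. The log2 fold change was 4.03 ± 0.32 (SE, adjusted p 4.32e-06), and it was 4.66 without cerebellum sample 1 and 3.40 without cerebellum sample 2. A further Mcm6 probe set, 1438852_x_at, read 141, 167 and 144 in medulloblastoma, against 10.5 and 6.50 in cerebellum, with a log2 fold change of 2.77 ± 0.17 (SE, adjusted p 1.06e-06). The smaller fold of this dimmer probe set is on the scale log2(intensity + 16), on which a change of low intensities is understated. The last Mcm6 probe set, 1447756_x_at on 430B, read 5.38, 5.48 and 5.60 in medulloblastoma, against 5.11 and 4.13 in cerebellum, and was left out of the test as one of the dimmest 25% of probe sets. With every probe set kept in the fit, its log2 fold change was 0.06 (adjusted p 0.788), so 1 of the 3 Mcm6 probe sets shows nothing of the difference that the other two show.

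Mcm7, the subunit that is tagged with ubiquitin when the helicase is taken off the DNA at the end of replication, was read by 4 probe sets that all rose. Probe set 1438320_s_at read 1192, 1246 and 896 in medulloblastoma, against 122 and 88.4 in cerebellum, a log2 fold change of 3.22 ± 0.22 (SE). Probe set 1416030_a_at read 750.0, 513 and 443 in medulloblastoma, against 59.0 and 41.5 in cerebellum, a log2 fold change of 3.12 ± 0.25 (SE). On both, every tumour stood far above the cerebellum samples. Probe set 1416031_s_at read 387, 328 and 257 in medulloblastoma, against 39.7 and 21.8 in cerebellum, with a log2 fold change of 2.87 ± 0.24 (SE). Probe set 1439269_x_at gave the smallest of the 4 changes, 2.22 ± 0.21 (SE), with 276, 217 and 277 in medulloblastoma, against 49.4 and 35.4 in cerebellum. The _s_at and _x_at suffixes mark probe sets whose oligonucleotides can also match other transcripts.

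Mcm4, which with Mcm6 and Mcm7 forms the part of the ring that unwinds DNA on its own in the test tube, rose on both of its probe sets. Probe set 1416214_at read 212, 210 and 191 in medulloblastoma, against 38.3 and 23.8 in cerebellum, a log2 fold change of 2.25 ± 0.20 (SE). Probe set 1436708_x_at read 67.8, 100.4 and 107 in medulloblastoma, against 23.9 and 14.8 in cerebellum, a log2 fold change of 1.60 ± 0.21 (SE). The tumour arrays were ordered differently on the 2 probe sets, with the first tumour highest on 1416214_at and lowest on 1436708_x_at.

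Mcm2 forms with Mcm5 the gate through which DNA enters the ring, as seen in fly and yeast proteins, and it also binds histones at the fork. Its probe set 1434079_s_at read 335, 468 and 273 in medulloblastoma, against 41.5 and 25.7 in cerebellum, and 1448777_at read 262, 246 and 205 in medulloblastoma, against 21.1 and 15.6 in cerebellum. The 2 probe sets gave nearly equal log2 fold changes, 2.90 ± 0.25 and 2.88 ± 0.19 (SE), with groups far apart on both.

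Mcm5, the other gate subunit, was tested on both chips, and its 3 probe sets rose by very different amounts. On 430A, 1415945_at read 312, 247 and 201 in medulloblastoma, against 27.5 and 27.8 in cerebellum, a log2 fold change of 2.60 ± 0.21 (SE). The cerebellum arrays were almost equal here, unlike those of most other hexamer probe sets. On 430B, 1436808_x_at read 722, 794 and 508 in medulloblastoma, against 74.2 and 37.0 in cerebellum, a log2 fold change of 3.30 ± 0.31 (SE). Also on 430B, 1459658_at read 33.2, 36.4 and 25 in medulloblastoma, against 14.0 and 16.7 in cerebellum, a log2 fold change of 0.59 ± 0.15 (SE, adjusted p 0.0217). This small rise kept the groups apart but lost its call when 430B was scaled on the 100 probe sets that both chips hold (0.46, adjusted p 0.217). It also lost it without cerebellum sample 1 or 2 and without tumour 1 or 2, with adjusted p of 0.17, 0.0949, 0.0654 and 0.0909 in that order.

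Mcm3, the subunit through which the yeast ring first docks on the origin recognition complex and Cdc6, had 5 probe sets, of which 4 rose. The largest change was that of 1420028_s_at, with 156, 166 and 138 in medulloblastoma, against 13.0 and 5.54 in cerebellum, a log2 fold change of 2.76 ± 0.19 (SE). Probe set 1449705_x_at read 96.8, 120.2 and 108 in medulloblastoma, against 9.89 and 6.19 in cerebellum, and 1426652_at read 126, 110.1 and 97.0 in medulloblastoma, against 13.5 and 9.38 in cerebellum. Their log2 fold changes were 2.37 ± 0.16 and 2.21 ± 0.17 (SE). Probe set 1426653_at had the smallest of the 4 rises, with 148, 123.4 and 103 in medulloblastoma, against 26.3 and 29.2 in cerebellum, 1.67 ± 0.19 (SE) in log2 fold change. Probe set 1420029_at did not pass the test. It read 37.1, 43.8 and 35.9 in medulloblastoma, against 27.9 and 28.5 in cerebellum, a log2 fold change of 0.31 ± 0.15 (SE, adjusted p 0.141) with a 95% interval of -0.02 to 0.63. That interval lies below the whole range of the other 4 Mcm3 probe sets, so the probe sets of this gene differ in how much they report.

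**Figure D2:**
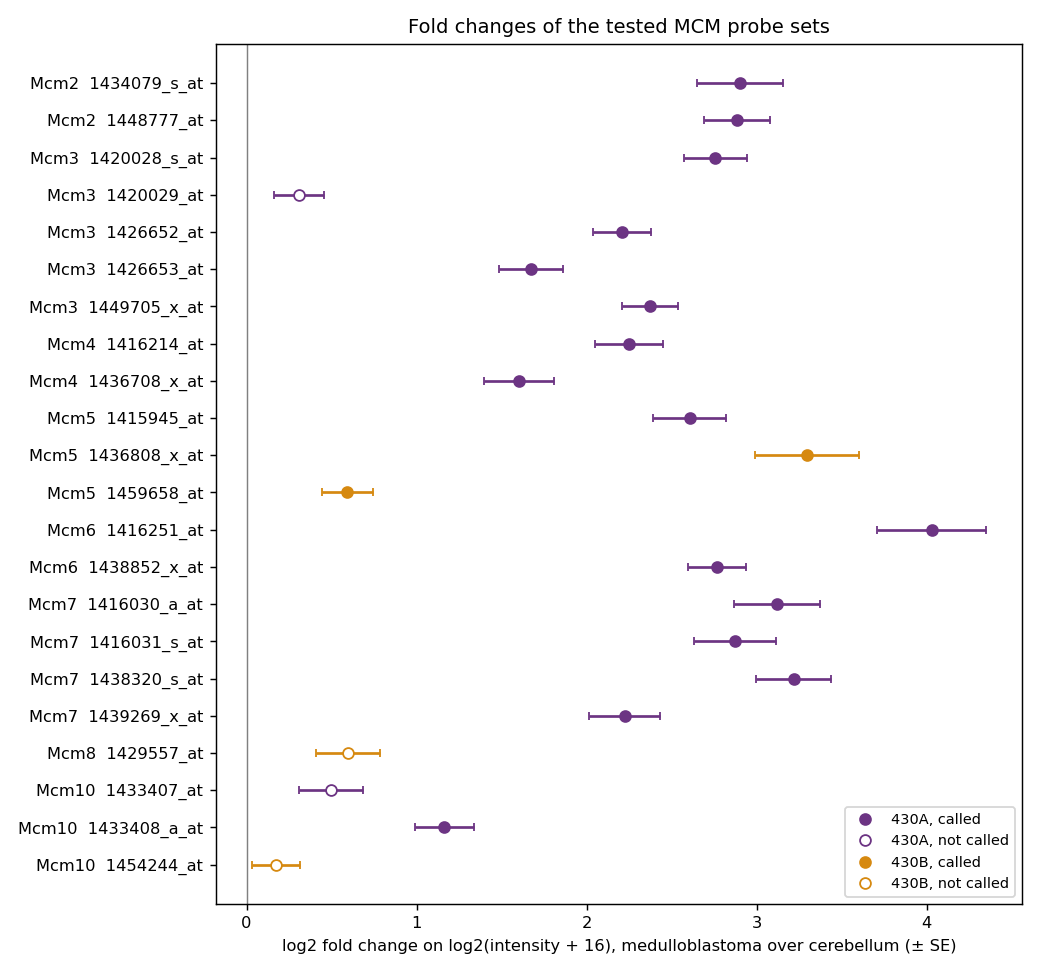
Log2 fold change of each tested MCM probe set, medulloblastoma over cerebellum, on the log2(intensity + 16) scale, ordered by gene. Bars are ± 1 SE from limma, colour gives the chip, and filled points passed the test. Most probe sets of Mcm2 to Mcm7 lie between 1.60 and 4.03, while 1 probe set each of Mcm3 and Mcm5 and those of Mcm8 and Mcm10 lie between 0.17 and 1.16.

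Of the genes outside the hexamer, Mcm10 had 3 probe sets, and 1 of them rose. Probe set 1433408_a_at read 85.3, 85.7 and 79.6 in medulloblastoma, against 34.4 and 23.2 in cerebellum, a log2 fold change of 1.16 ± 0.17 (SE, adjusted p 0.00033), the smallest of the 16 rises on 430A. Probe set 1433407_at read 28.2, 23.3 and 38.3 in medulloblastoma, against 21.9 and 11.5 in cerebellum, a log2 fold change of 0.50 ± 0.19 (SE, adjusted p 0.0661). Its highest cerebellum array came close to its lowest tumour array. It passed the test with equal array medians (adjusted p 0.0453) and without tumour 2 (0.023), but not without tumour 1 (0.124) or tumour 3 (0.187). Its log2 fold change was 0.73 without cerebellum sample 1 and 0.26 without cerebellum sample 2. On 430B, 1454244_at read 35.8, 32.4 and 30.8 in medulloblastoma, against 30.5 and 24.6 in cerebellum, a log2 fold change of 0.17 ± 0.14 (SE, adjusted p 0.47) with a 95% interval of -0.14 to 0.48. The Mcm10 probe sets therefore gave a rise, a value just short of the threshold and a value whose interval spans 0.

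Mcm8, the repair helicase, was read by 1 probe set on 430B. It read 62.9, 62.0 and 38.3 in medulloblastoma, against 30.0 and 29.7 in cerebellum. The cerebellum arrays were nearly equal, and the third tumour lay closer to them than to the other tumours. The log2 fold change of 0.60 ± 0.19 (SE, 95% interval 0.18 to 1.02) fell just short of the threshold, with an adjusted p of 0.0543. Without tumour 3 it was 0.78 (adjusted p 0.000697). It also passed the test with equal array medians (adjusted p 0.0409), with quantile normalization (0.03) and with the dimmest 50% of probe sets left out (0.0468). It did not pass without tumour 1 (0.51, adjusted p 0.148), without tumour 2 (0.51, adjusted p 0.184) or with 430B scaled on shared probe sets (0.42, adjusted p 0.279). Nor did it pass with pseudocounts of 1 and 64 (adjusted p 0.0573 and 0.057), with no filter (0.0893) or with no intensity trend (0.068). The log2 fold change was 0.60 without cerebellum sample 1 and 0.59 without cerebellum sample 2. Mcm9, the partner of Mcm8, read 26.3, 21.7 and 19.1 in medulloblastoma, against 13.5 and 11.3 in cerebellum, on the only 1 of its 4 probe sets bright enough to be tested. Its log2 fold change was 0.43 ± 0.14 (SE), and with an adjusted p of 0.0717 it was not called.

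The upstream sequences of 4 genes are shown because they span the sizes of change on 430A: Mcm6 with the largest rise there, Mcm5 and Mcm2 with rises of 2.60 to 2.90, and Mcm10 with the smallest of the 16 rises. They are the 250 bases before the start site in RefSeq's promoter table (GRCm38.p6), each written 5′ to 3′ on the strand of the gene. Capitals mark E2F words, the letters TTTCCCGC, TTTCGCGC, TTTGCCGC or TTTGGCGC on either strand, which are forms of the sequence bound by the E2F factors that drive genes of DNA synthesis. Mcm6 lies at chr1:128359706-128359955 on the minus strand, Mcm5 at chr8:75109259-75109508 on the plus strand, Mcm2 at chr6:88898781-88899030 on the minus strand and Mcm10 at chr2:5012792-5013041 on the minus strand.
Mcm6: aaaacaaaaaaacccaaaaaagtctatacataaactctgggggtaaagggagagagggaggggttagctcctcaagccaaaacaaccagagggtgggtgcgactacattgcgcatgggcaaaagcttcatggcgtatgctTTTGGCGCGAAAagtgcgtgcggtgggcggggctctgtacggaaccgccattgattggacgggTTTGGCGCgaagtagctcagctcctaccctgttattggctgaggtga
Mcm5: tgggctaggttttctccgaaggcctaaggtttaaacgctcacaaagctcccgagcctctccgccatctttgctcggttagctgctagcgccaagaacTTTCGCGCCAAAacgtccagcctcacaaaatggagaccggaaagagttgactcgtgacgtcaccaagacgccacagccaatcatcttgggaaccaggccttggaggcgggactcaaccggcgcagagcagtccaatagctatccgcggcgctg
Mcm2: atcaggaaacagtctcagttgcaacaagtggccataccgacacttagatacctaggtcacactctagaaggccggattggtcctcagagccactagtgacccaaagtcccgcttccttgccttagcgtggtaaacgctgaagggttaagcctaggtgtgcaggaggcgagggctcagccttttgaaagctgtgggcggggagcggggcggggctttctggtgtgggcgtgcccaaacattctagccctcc
Mcm10: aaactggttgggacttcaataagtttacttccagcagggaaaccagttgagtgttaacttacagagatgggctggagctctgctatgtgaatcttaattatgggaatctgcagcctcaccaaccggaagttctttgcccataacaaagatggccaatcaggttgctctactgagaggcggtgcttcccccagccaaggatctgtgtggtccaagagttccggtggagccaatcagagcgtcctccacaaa

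The search covered the table's 300 bases of each promoter, 250 before the start site and 50 from it on. Of the 8 MCM genes, 7 have an entry, with 8 promoters because Mcm7 has 2 start sites, and Mcm4 has no entry. E2F words were found in 5 of the 8 promoters, those of Mcm3, Mcm5, Mcm6, Mcm8 and 1 of the 2 of Mcm7, against 2.27% of all 32851 promoters in the table. Counted by gene, 5 of the 7 had such a word, against 4.22% of the 11815 tested genes with a promoter entry. Mcm6 held 3 such words, and Mcm3, Mcm5 and that Mcm7 promoter held 2 each, while 0.0974% of all promoters held 2 or more. In Mcm5 the words at -153 to -146 and -149 to -142 overlap on opposite strands, in Mcm6 those at -110 to -103 and -106 to -99 do, and the last Mcm6 word lies at -47 to -40 (positions count from 0 at the start site). No E2F word was found in these 300 bases of Mcm2, which rose by 2.88 and 2.90, or of Mcm10, while Mcm8, which missed the threshold, has one. The Mcm10 window ends on letters that begin the word TTTGGCGC, and a word that crosses the end of a window is missed by this search. The letters CCAAT, the word of the factor NF-Y, were in 8 of 8 promoters, against 37.4% of all, and the GC box GGGCGG was in 7 of 8, all but Mcm5, against 35.7% of all, both words on either strand. In Mcm7 the E2F word at 16 to 23 shares 1 base with a CCAAT word at 23 to 27. A match is a run of letters and not a measured binding site.

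**Figure D3:**
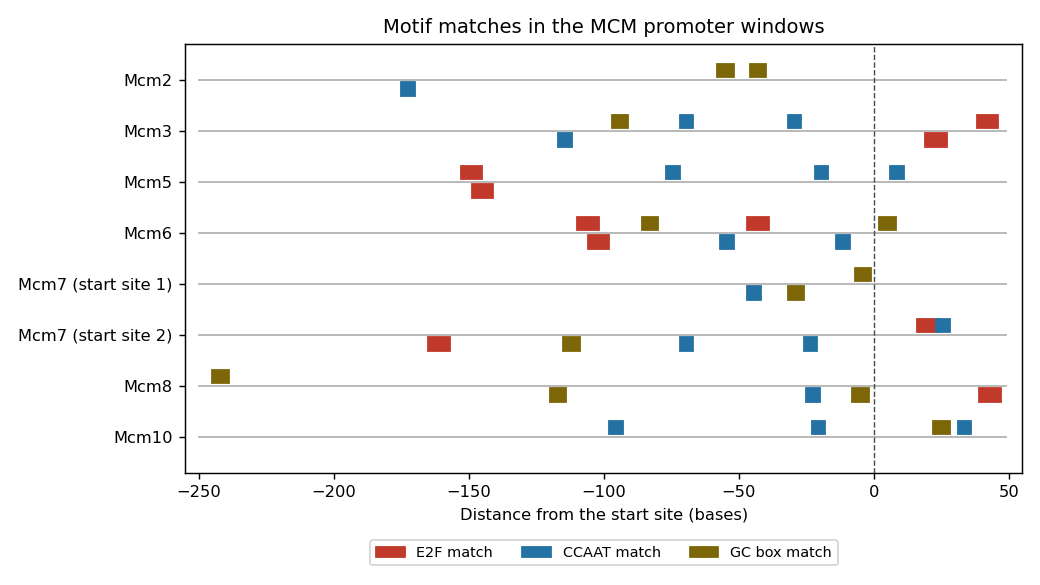
Position of E2F words, CCAAT words and GC boxes in the 8 MCM promoters, in bases from the start site at 0, with 1 row per promoter. Marks above the line read on the strand of the gene, and marks below it on the opposite strand. E2F words lie upstream of the start site in Mcm5 and Mcm6, downstream of it in Mcm3 and Mcm8, on both sides in 1 Mcm7 promoter, and are not found in Mcm2, Mcm10 and the other Mcm7 promoter.

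The cerebellum arrays were not alike for the MCM genes. On 430A, cerebellum sample 1 lay above cerebellum sample 2 in 15 of 18 MCM probe sets, by a median of 0.37 on the log2(intensity + 16) scale, whereas over all tested probe sets the share was 50.3% and the median difference 0.00194. Averaged over Mcm2 to Mcm7, after each probe set was centred on its mean over the 5 arrays, the log2 level was 1.11, 1.12 and 0.88 in the 3 tumours, against -1.38 and -1.73 in cerebellum samples 1 and 2. Mcm6 had the widest gap, -1.66 against -2.41, while the 1 Mcm5 probe set on this chip had -1.57 and -1.56. On 430B, cerebellum sample 1 was above sample 2 in 3 of the 4 tested MCM probe sets, by a median of 0.10, against 53.8% of all tested probe sets and a median of 0.0231, and there 1436808_x_at of Mcm5 read 74.2 and 37.0 in samples 1 and 2. Markers of dividing cells showed the same order: all 5 that were measured (Mki67, Top2a, Cdk1, Ccna2 and Pcna) rose in medulloblastoma and were higher in cerebellum sample 1 than in sample 2, by a median of 1.36. Mki67, the proliferation antigen, read 627, 747 and 674 in medulloblastoma, against 53.8 and 11.2 in cerebellum, and Top2a, a topoisomerase of dividing cells, read 822, 685 and 700 in medulloblastoma, against 65.4 and 4.65 in cerebellum. Summed over the 5 markers, intensity was 3868 to 4355 in the tumours, against 590 and 313 in cerebellum samples 1 and 2. The part of these dividing-cell markers in the MCM values was not tested.

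**Figure D4:**
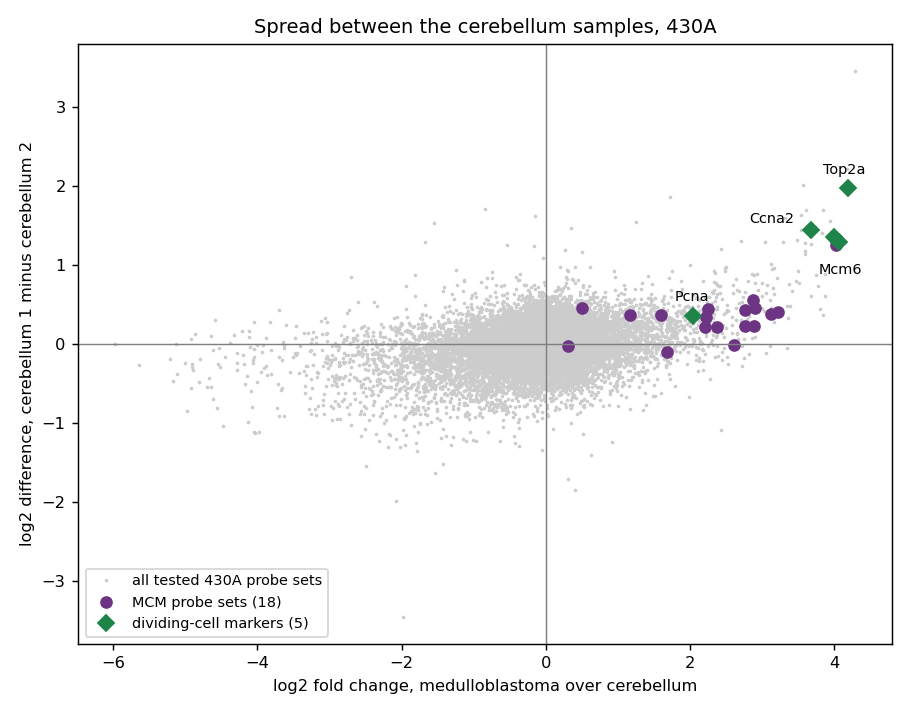
Each tested 430A probe set by its log2 fold change, medulloblastoma over cerebellum (horizontal), and by the log2 difference between cerebellum samples 1 and 2 (vertical), with the 18 MCM probe sets and the 5 markers of dividing cells drawn over all others. Of the MCM probe sets, 15 lie above 0 on the vertical axis, with Mcm6 beside the dividing-cell markers at 1.26.

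The tissue labels were checked on other cell type markers. Markers of granule neuron precursors rose in medulloblastoma in 6 of 8 and fell for Zic1, with a median log2 fold change of 2.97 over the 8. Their summed intensity was 3480 to 5193 in the tumours, against 2656 and 2922 in the cerebellum samples. Zic1 alone gave 2149 and 2631 of the cerebellum sums. Markers of mature granule neurons fell in 8 of 8 (1229 to 2205 in medulloblastoma, against 11861 and 13125 in cerebellum), and all measured markers of Purkinje cells (5), interneurons (4) and oligodendrocytes (2) fell, as did 4 of 5 of astrocytes. Those of microglia rose in 2 of 4 (344 to 414 in medulloblastoma, against 278 and 229 in cerebellum), and none of the 7 endothelial, meningeal and blood markers measured was called by limma (adjusted p 0.252 to 0.943) or passed an unadjusted p below 0.05. The cerebellum samples also differed from each other in these lists. Sample 1 was above sample 2 in 6 of 8 precursor markers (median log2 difference 0.42) and 4 of 4 of microglia (0.16). It was above in 0 of the Purkinje (-0.38), interneuron (-0.38) and oligodendrocyte (-0.37) markers. For mature granule neurons it was above in 1 of 8 (-0.18), and for astrocytes in 1 of 5 (-0.24). The share of each cell type in the MCM values was not tested.

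Among the tumours, tumour 3 of 430A was lowest in 12 of the 16 MCM probe sets that rose, with a median deviation of -0.18 from the tumour mean on the log2 scale, while tumours 1 and 2 were each highest in 7. Tumour 3 of 430B was also the lowest in the 2 that rose there, but the sample numbers of the chips do not line up. Deviations from the group mean were compared between chips over the 100 probe sets that both hold. Tumours 1, 2 and 3 of 430A were most like tumours 2, 3 and 1 of 430B, with correlations of 0.83, 0.86 and 0.73. Same-numbered tumours had correlations of 0.22, -0.68 and -0.52. No tumour was therefore followed from chip to chip. For Mcm8, the distance from the highest to the lowest tumour was wider than that from the lowest tumour to the cerebellum samples, while for 1416251_at of Mcm6 the tumours lay close together and far from the cerebellum.

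The factors that load, switch on and accompany the hexamer rose with it in part. Of 29 such genes on a textbook list, 28 were measured, each by 1 probe set, and 16 rose while none fell, against 10.7% of all 14702 genes that rose and 16% that fell. At an unadjusted p below 0.05, 19 were higher and 0 lower. The median log2 fold change of the 28 was 0.59, against -0.05 over all genes. Without cerebellum sample 2 the count of rises was 11, and without tumour 2 it was 19.

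The loading factors CDC6 and CDT1, which place the hexamer on DNA, rose most among loading genes, and 4 of 4 on that list rose. Cdt1 read 122, 223 and 218 in medulloblastoma, against 29.0 and 16.5 in cerebellum, a log2 fold change of 2.37 ± 0.26 (SE). Cdc6 read 90.9, 61.8 and 79.2 in medulloblastoma, against 6.90 and 4.64 in cerebellum, a log2 fold change of 2.09 ± 0.17 (SE). The origin recognition complex, on which these factors work, had 1 gene of 6 that rose, Orc6, and the other 5 lay between -0.30 (Orc4) and 0.54 (Orc3) without passing the test. Orc6 read 159, 91.9 and 139 in medulloblastoma, against 56.9 and 41.0 in cerebellum, a log2 fold change of 1.15 ± 0.23 (SE, adjusted p 0.00281), and it lost its call without cerebellum sample 2 (0.97, adjusted p 0.0562). The call of Mcmbp, which helps to take the hexamer off DNA (0.46, adjusted p 0.0447), was lost without cerebellum sample 1 or 2 (adjusted p 0.202 and 0.233), without tumour 1 or 3 (0.0865 and 0.0708) and with no filter on dim probe sets (0.0654). No test compared the Orc genes with the hexamer genes.

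Of the 13 genes that activate the helicase or travel with it, 8 rose. Dbf4, the partner that switches on the kinase CDC7 which phosphorylates the hexamer, read 95.9, 98.2 and 140 in medulloblastoma, against 14.3 and 4 in cerebellum, a log2 fold change of 2.35 ± 0.22 (SE). Its other tested probe set had overlapping groups and a log2 fold change of -0.15 ± 0.26 (SE, adjusted p 0.72). Cdc45, a component of the active helicase, read 125, 92.1 and 121 in medulloblastoma, against 21.4 and 11.4 in cerebellum, a log2 fold change of 2.0 ± 0.20 (SE). Its other probe set, on 430B, had overlapping groups and a log2 fold change of -0.003 ± 0.17 (SE, adjusted p 0.993). Cdc7 and Topbp1, counted as rises, also had another tested probe set with overlapping groups (-0.01 and -0.33, adjusted p 0.978 and 0.372), while both probe sets of Gins2 rose. The 3 fork protection genes rose, led by Clspn (1.99 ± 0.20, SE) and Timeless (1.56 ± 0.17, SE), which keep the helicase and the polymerases together. Clspn read 158, 146 and 101 in medulloblastoma, against 22.2 and 20.7 in cerebellum. The third of them, Tipin, lost its call without cerebellum sample 2 (1.16, adjusted p 0.0844). Of the activation genes, Cdc7 lost its call without cerebellum sample 2 (adjusted p 0.458), without tumour 1 or 3 (0.0928 and 0.0984) and with no filter (0.0537). Recql4 lost it without any single array other than tumour 2 (adjusted p 0.0534 to 0.212), with no filter (0.053) and with no intensity trend (0.0565). The MCM relatives did not pass the test: beside Mcm9 above, Mcm3ap, whose protein was named for binding MCM3, read 48.98, 52.7 and 56.8 in medulloblastoma, against 43.6 and 59.4 in cerebellum, with overlapping groups and a log2 fold change of 0.04 ± 0.17 (SE, adjusted p 0.903).

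**Figure D5:**
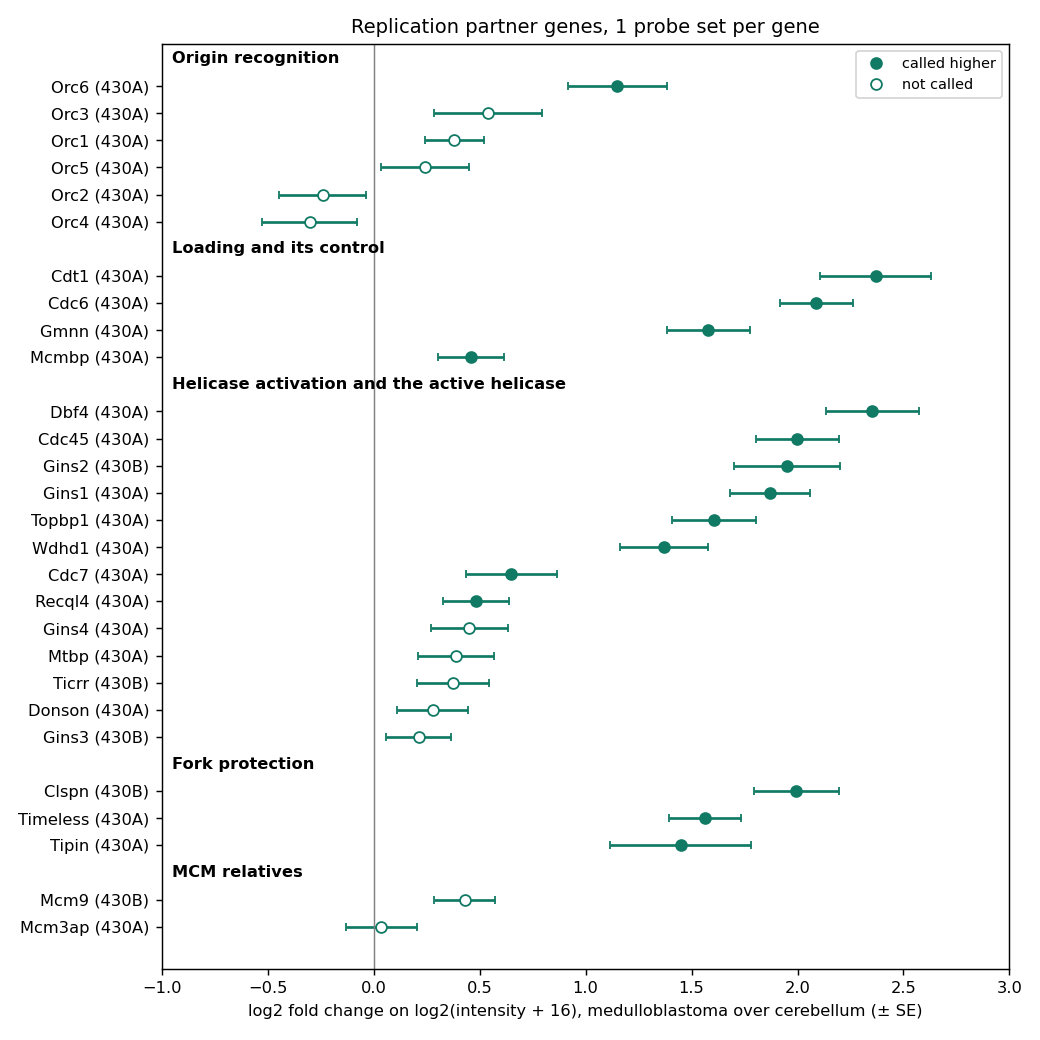
Log2 fold change, medulloblastoma over cerebellum, of the 28 replication partner genes measured, grouped by role, on the log2(intensity + 16) scale. Bars are ± 1 SE from limma, and filled points passed the test. Loading and fork protection genes lie to the right of 0, while 5 of the 6 origin recognition genes lie between -0.30 and 0.54.

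The genes outside the family whose 430A profile was most like the mean of Mcm2 to Mcm7 were found by the root mean square difference of centred log2 values over the 5 arrays. They were Jpt1 (0.073) and Ccnd1 (0.0732), the gene of cyclin D1, followed by Snrpg (0.135), Cxcr4 (0.141), Ier5 (0.147) and Rad54l (0.152). The 430A probe sets of Mcm2 to Mcm7 lay between 0.09 and 1.13 from that mean, with a median of 0.218. The median over all tested probe sets with 1 gene was 1.31. Since those Mcm2 to Mcm7 probe sets make up the mean, part of their closeness is built in. Ccnd1 read 707, 665 and 654 in medulloblastoma, against 107 and 83.7 in cerebellum. Jpt1 read 396, 369 and 324 in medulloblastoma, against 55.8 and 46.5 in cerebellum. Both had tumours close together and cerebellum sample 1 above sample 2, as the hexamer mean did. With 5 arrays in 2 groups, a small value says mainly that the difference between tumour and cerebellum is of like size.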

How the data were processed

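Medulloblastoma (3 arrays per chip) and adjacent cerebellum (2 arrays per chip) were grouped by sample titles. Per the labels' protocols, Trizol-extracted total RNA was made into biotinylated cRNA. The authors deposited intensity on a linear scale, 1 value per probe set and array; the sources used here name no software, scaling or background treatment. Exactly 1 was the value of 298 to 477 probe sets per array, and array medians lay between 33.3 and 35.9 on 430A and between 22.5 and 24.0 on 430B. The number of arrays limits the precision.

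Values were taken as log2(intensity + 16) with no further normalization, and the dimmest 25% by mean were dropped. Both chips were fitted separately in limma 3.58.1 (R 4.3.3, lmFit, eBayes with trend, two-sided). Benjamini-Hochberg adjustment ran over 16969 and 16883 probe sets, with calls at an adjusted p below 0.05. The steps were tested on simulated data. Tables and plots used Python 3.11.15 and matplotlib 3.10.9. Likeness of profiles was a root mean square difference, since 5 arrays are too few for a correlation.

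Gene names come from the platform annotation, and 20380 of 22626 probe sets on 430A and 14661 of 22511 on 430B name 1 gene. A partner or marker gene was represented by 1 probe set: from 430A where possible, without the suffix _s_at or _x_at where possible, and the brightest of those left. Named partners are the 2 largest called changes per role, every MCM relative and every lower gene. Other genes named are the marker genes of the checks and values that a count singled out. The members and the lists were chosen with earlier results of these data known. Alternatives were pseudocounts of 1 and 64, quantile normalization, equal medians, 430B scaled on shared probe sets, other filters, no trend, a replicate block, single arrays left out, stricter calls (adjusted p below 0.01, or a log2 change of at least 1) and other probe sets per gene.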

Additional observations from a re-analysis of the deposited data

How the results depend on the processing

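None of the tested MCM probe sets changed sign under the alternatives in which it was tested (1433407_at and 1420029_at were not tested with the dimmest 50% left out, and 1447756_x_at was tested only with no filter), and on 430A the count that rose was 16 or 17 under all of them. On 430B it was 2, and 1 under scaling on shared probe sets, under an adjusted p below 0.01 and under a log2 limit of 1, but 3 with equal array medians, with quantile normalization and with the dimmest 50% left out. Leaving out 1 tumour array at a time gave 1 to 3 there. With the same-numbered tumour array left out on each chip, 13 to 19 partner genes rose, 16 with all arrays. Arrays of the same number need not hold the same tumour. With 1 cerebellum array left, the spread comes from the tumours, and the lone sample is assumed to vary like them. With the replicate number as a block, 16 MCM probe sets rose on 430A, 3 on 430B and 17 partner genes, among which Mcmbp was not (adjusted p 0.0545). Only a tumour has the number 3 on each chip, so the block takes up that array. The fold changes with the block therefore equal those without tumour 3, and the block is not a separate check. The labels tie same-numbered samples of the tissues by a number only. The correlations of their deviations were -0.03 and 0.17 on 430A and 0.11 and 0.02 on 430B. These values cannot decide whether such samples share a mouse, since the deviations of the 2 cerebellum arrays mirror each other. A pseudocount of 1 moved 7 of the 16 folds on 430A by over 1.5 times (all 16 then between 1.53 and 4.85 in log2), and 64 moved 14 (0.67 to 2.94), with no call lost. Over all 430A probe sets, the 2231 rises became 1438 and 1275 without cerebellum sample 1 and 2, and the 3229 falls became 2057 without sample 2. Over all 430B probe sets, the 1326 rises became 844 under scaling on shared probe sets, 621 and 531 without cerebellum sample 1 and 2, 824 without tumour 2, 2603 without tumour 3 and 2822 with the block, and the 1649 falls became 1020 and 954 without cerebellum sample 1 and 2. That scaling moved the median log2 fold change of 430B to -0.17, against -0.02, and the share of calls that were rises to 30.1%, against 44.6%. Low intensity kept 1447756_x_at out of the test.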

Other observations

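Genes beside the MCM genes in RefSeq's gene table, chosen after the data were seen, gave the values below. Prkdc, the neighbour of Mcm4 and the catalytic subunit of the DNA-dependent protein kinase, read 40.2, 33.9 and 40.8 in medulloblastoma, against 39.8 and 38.2 in cerebellum, a log2 fold change of -0.02 ± 0.15 (SE, 95% interval -0.35 to 0.31, adjusted p 0.939). Ap4m1, whose promoter in that table overlaps that of Mcm7 on the opposite strand, read 15.99, 17.2 and 20.2 in medulloblastoma, against 17.2 and 16.7 in cerebellum, a log2 fold change of 0.04 ± 0.14 (SE, 95% interval -0.27 to 0.34, adjusted p 0.879). Cops6, a neighbour of Mcm7, had log2 fold changes of -0.31 ± 0.23 and -0.35 ± 0.15 (SE, adjusted p 0.358 and 0.105) on its probe sets. Trmt6, beside Mcm8, had 3 probe sets between -0.07 and 0.08, none called.

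E2F words of the kind listed for the MCM promoters were found for 113 of the 1294 genes with a promoter entry that rose (8.73%), for 3.5% of the 1887 that fell and for 3.71% of the 8634 not called. Among the 164 genes that rose with a log2 fold change of at least 2, 22 had such a word (13.4%), and among 21 replication partner genes with a promoter entry, 8 did. These are counts of letters, with no test. Of the partner genes with a word, Cdc6, Cdt1, Mcmbp, Topbp1 and Clspn rose, while Orc1 and Orc3 were not called. Gins3 also has a word, and its representative probe set was not called while its other probe set was (0.62, adjusted p 0.0179). Cdc45, Cdc7, Dbf4, Orc6, Timeless and Wdhd1 rose with no word found.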
